A study of Homo sapiens with 6 samples.

Results

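The genes described here are 53 genes of the DNA replication machinery, chosen by name from its known parts and found in the deposited table through their Entrez identifiers. All 53 are in the table, which lists 12486 genes, and all were tested, along with every other gene whose mean reached 0.1 FPKM (12276 in all). The RNA came from K562, a human chronic myeloid leukemia line with the Bcr-Abl fusion. Lentivirus was used to give the cells a stable shRNA, directed in 3 libraries at luciferase as a control (sh-luc) and in 3 libraries at a long noncoding RNA (sh-up91). The target is named lncRNA-up91 in the sample labels and lncRNA-IUR1 in the study, and its own level was not analysed here. The comparison asks which transcripts differ when this lncRNA is depleted.

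Copying the genome once per cell cycle begins in G1, when the origin recognition complex, CDC6 and CDT1 load the MCM2-7 helicase onto origins as an inactive double ring. At the start of S phase the kinases CDC7-DBF4 and CDK convert it, with CDC45 and the GINS complex, into the active helicase. Polymerase alpha-primase then lays down primers, polymerase epsilon and polymerase delta extend the leading and lagging strands on the sliding clamp PCNA, and FEN1 and LIG1 process and join the lagging-strand fragments. Many of these genes are classical targets of E2F factors, which the retinoblastoma protein family holds in check until cells commit to S phase. K562 is a fast-growing line, so a share of its cells is in S phase at any time.

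The promoters are shown because a shared sequence feature was found in many of them that the choice of genes did not use. RefSeq promoters (GRCh38.p14, 250 bases before to 50 bases after the start site) were matched for 47 of the 53 genes, and GINS4, MCM4, MCM5, POLD3, RPA2 and RPA3 had none. The 4 E2F words searched on both strands were TTTCCCGC, TTTCGCGC, TTTGCCGC and TTTGGCGC. They were present in 19 of 47 promoters (40.4%), against 3.33% of all 27305 promoters and 5.58% of the 9939 promoters of tested genes. The CCAAT box (CCAAT, bound by NF-Y) was in 26 of 47 promoters (55.3%), against 35.7% of all promoters and 37.1% of those of tested genes. The word TTTGAA, the core of the cell cycle homology region typical of mitotic genes, was in 2 of 47 (4.26%), against 15.4% and 9.87%. The shares were not adjusted for base composition, and the POLE2 and PCNA promoters were 69% and 68% G or C. A match is a string of letters and does not show that a factor binds there. The promoters of POLE2, the second subunit of polymerase epsilon, and of PCNA are printed whole, since these were the 2 genes whose sh-luc and sh-up91 libraries did not overlap. The E2F word is in capitals and the strand is that of the gene.
POLE2, chr14:49688165-49688464, minus strand: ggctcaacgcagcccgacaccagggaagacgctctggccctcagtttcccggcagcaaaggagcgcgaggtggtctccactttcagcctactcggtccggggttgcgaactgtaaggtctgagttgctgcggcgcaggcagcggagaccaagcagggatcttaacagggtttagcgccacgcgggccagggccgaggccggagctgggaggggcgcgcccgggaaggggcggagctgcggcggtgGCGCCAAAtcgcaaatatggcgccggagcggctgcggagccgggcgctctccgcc
PCNA, chr20:5126573-5126872, minus strand: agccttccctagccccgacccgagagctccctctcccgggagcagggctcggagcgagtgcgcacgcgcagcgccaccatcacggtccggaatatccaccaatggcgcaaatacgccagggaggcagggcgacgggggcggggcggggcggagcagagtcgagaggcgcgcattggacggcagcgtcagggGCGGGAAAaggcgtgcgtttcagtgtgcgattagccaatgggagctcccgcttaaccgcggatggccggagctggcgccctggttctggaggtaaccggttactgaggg

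In POLE2 the word began 5 bases before the start site, and in PCNA it began 59 bases before it. Windows of 60 bases around the word are given for genes of each step, from licensing to the clamp loader, again with the word in capitals.
CDC6, chr17:40287860-40287919, plus strand: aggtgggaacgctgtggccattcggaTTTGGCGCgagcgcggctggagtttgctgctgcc
CDT1, chr16:88803728-88803787, plus strand: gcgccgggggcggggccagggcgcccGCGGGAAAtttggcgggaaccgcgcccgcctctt
MCM2, chr3:127598387-127598446, plus strand: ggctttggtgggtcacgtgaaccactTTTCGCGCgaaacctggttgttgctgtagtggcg
MCM6, chr2:135876500-135876559, minus strand: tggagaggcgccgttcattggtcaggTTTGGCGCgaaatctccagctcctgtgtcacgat
MCM7, chr7:100101373-100101432, minus strand: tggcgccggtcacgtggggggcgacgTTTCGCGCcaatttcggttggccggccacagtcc
GINS1, chr20:25407652-25407711, plus strand: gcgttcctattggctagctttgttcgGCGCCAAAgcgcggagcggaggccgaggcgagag
GINS2, chr16:85688952-85689011, minus strand: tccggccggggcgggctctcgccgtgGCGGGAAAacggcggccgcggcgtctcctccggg
POLA2, chr11:65261883-65261942, plus strand: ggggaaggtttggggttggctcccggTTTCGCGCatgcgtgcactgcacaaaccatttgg
POLE, chr12:132687327-132687386, minus strand: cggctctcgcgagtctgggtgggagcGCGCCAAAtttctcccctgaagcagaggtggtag
RFC3, chr13:33818068-33818127, plus strand: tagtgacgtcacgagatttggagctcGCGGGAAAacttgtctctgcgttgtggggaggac
CLSPN, chr1:35769950-35770009, minus strand: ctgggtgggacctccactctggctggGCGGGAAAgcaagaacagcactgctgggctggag

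Several of these words sit in near-palindromes, so that 1 stretch matched on both strands. In MCM2 the words began 2 and 6 bases after the start site and overlapped, and in MCM6 overlapping pairs of words began 152 and 148 bases and 90 and 86 bases before it. In all, 25 words were found, 4 genes had more than 1, and 14 of the 25 began within the 100 bases before the start site. Both an E2F word and a CCAAT box were found in 12 genes. The plot of word positions shows this crowding near the start site.

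**Figure D1:**
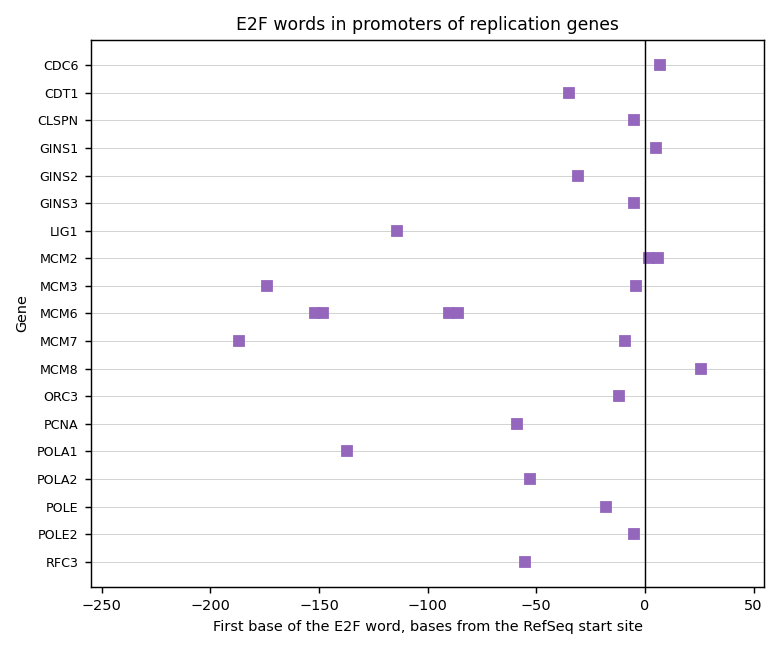
Position of each E2F word (square) in bases from the RefSeq start site (x axis, 0 marked by the line) for the 19 replication genes (y axis) whose promoter held one. The words lie between 187 bases before and 26 bases after the start site, and 14 of 25 begin in the last 100 bases before it.

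K562 markers were present throughout: all 12 of 12 erythroid leukemia markers were listed, with a summed level of 5365 to 6904 FPKM in sh-luc cells and 5258 to 5858 FPKM in sh-up91. Of the other cell types, T cell markers summed to at most 5.08 FPKM (3 of 4 listed), B cell markers to at most 1.36 FPKM (2 of 3) and fibroblast markers to at most 0.37 FPKM (1 of 3), while neither of the 2 monocyte markers was listed. EPCAM alone of the 2 epithelial markers was listed, at 37.9 to 47.6 FPKM. FPKM over all listed genes summed to between 579820 and 606240 per library. The number of fragments behind the values is unknown. The unnumbered sh-luc library and sh-up91 r1 held the lowest values of most of the genes below. They also lie at the ends of a list of 17 tested amino acid and unfolded-protein stress genes, whose mean log2(FPKM + 1) was 5.43 in the unnumbered sh-luc library, 6.404 in sh-luc r1 and 6.23 in sh-luc r2. In the sh-up91 libraries it was 6.44 (unnumbered), 6.57 (r1) and 6.12 (r2). This list was chosen with earlier results of these data known. All 17 stress genes were lowest in the unnumbered sh-luc library, against 37.5% of all genes tested. Of the 17, 13 were highest in sh-up91 r1, against 25.8% of all genes. The part of this pattern in the results below was not tested.

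Transcript levels of the replication genes differed little between sh-up91 and sh-luc cells. In RNA of whole cultures, a changed share of cells in S phase and a changed amount of RNA per cell cannot be told apart. By flow cytometry, the study found that cell cycle progression did not differ significantly between control and knockdown K562 cells. No gene was called with limma at an adjusted p under 0.05, neither among the 53 genes nor among all 12276 (0%), and the smallest adjusted p of the 53 was 0.930. Before adjustment, 3 of the 53 had a limma p-value under 0.05, against 325 of all genes (2.65%). Of the 7193 genes in the same range of levels as the 53, 116 did. PRIM1, the catalytic subunit of primase, stood higher in sh-up91, and POLE2 and PCNA stood lower. The groups did not overlap in 2 of the 53 genes, against 868 of all genes tested (7.07%). Both genes were lower in sh-up91, a direction found in 372 of all genes (3.03%), and none of the 53 was higher without overlap, against 496 of all genes (4.04%). Among the 7193 genes in the same range of levels the groups did not overlap in 441, with 250 lower and 191 higher. An exact permutation test of 3 against 3 libraries cannot give a two-sided p below 0.1. The study's methods describe the cells of the 3 libraries per group as independent, and the labels do not say whether they were separate cultures or separate infections.

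The fold changes on the log2(FPKM + 1) scale, taken as sh-up91 minus sh-luc, lay between -0.23 for GINS1 and 0.19 for PRIM1. Of the 53, 24 were above 0 and 29 below, with a median of -0.0081, against a median of 0.019 for all genes tested and 0.0080 for the 7193 genes in the same range of levels. The 95% intervals from limma reached from -0.48 (GINS1) at the lowest to 0.37 (PRIM1) at the highest, and for 40 of the 53 genes the interval lay within 0.25 either way. The libraries also differed little among themselves, since the ratio of the highest to the lowest library had a median of 1.17 over the 53 genes. The median SD over the 6 libraries was 0.078 on the log2 scale, against 0.091 for genes in the same range of levels.

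**Figure D2:**
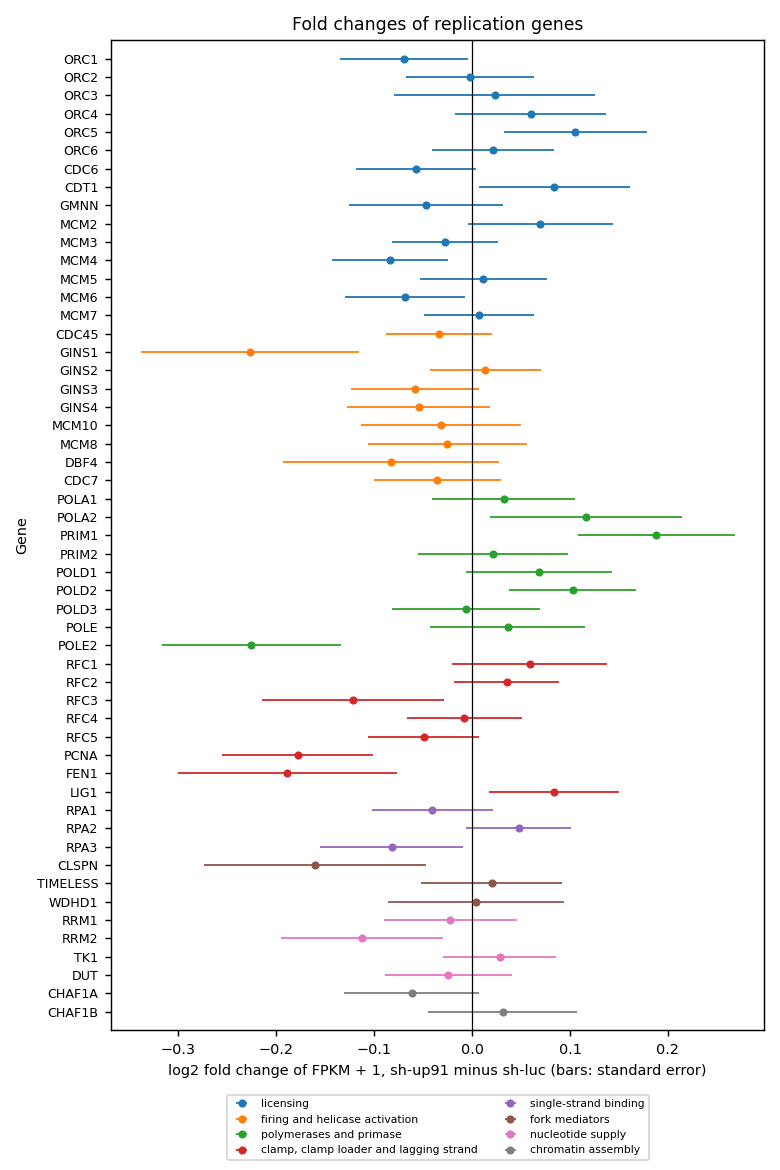
Difference between the mean of 3 sh-up91 and 3 sh-luc libraries (x axis, log2 of FPKM + 1) for each of the 53 replication genes (y axis), coloured by role, with the standard error from limma as bars. The points lie between -0.23 for GINS1 and 0.19 for PRIM1, 24 to the right of 0 and 29 to the left.

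The values that stood out were those of single libraries. The lowest value of a gene fell in the unnumbered sh-luc library for 22 of the 53 and in sh-up91 r1 for 23. Together these were 45 of 53 (84.9%), against 59.7% of all genes tested and 65.5% of genes in the same range of levels. For the unnumbered sh-luc library alone the share was 41.5%, against 37.5% of all genes and 39.3% in that range. For sh-up91 r1 alone it was 43.4%, against 22.2% and 26.2%, so the larger excess was in sh-up91 r1. The highest value fell in either library for 22 of the 53 (41.5%), a smaller share than the 49.5% of all genes and 54% in that range. Here the libraries went opposite ways. The unnumbered sh-luc library was highest for 30.2% of the 53, against 23.7% of all genes and 27.5% in that range. The sh-up91 r1 library was highest for 11.3%, against 25.8% and 26.5%. In 13 genes the unnumbered sh-luc library was highest and sh-up91 r1 lowest. These were GMNN, MCM6, GINS1, DBF4, POLE2, RFC3, PCNA, FEN1, RPA1, CLSPN, WDHD1, RRM1 and RRM2, or 24.5% of the 53, against 12.8% of all genes and 16.8% of genes in the same range of levels. In 6 genes the order was the opposite, with the unnumbered sh-luc library lowest and sh-up91 r1 highest. These were ORC6, POLA2, POLD2, RFC2, RPA2 and TIMELESS, or 11.3%, against 18% of all genes and 20.2% of genes in the same range of levels. The median deviation of the 53 genes from their own mean was -0.059 in sh-up91 r1 and between -0.0029 and 0.027 in the other 5 libraries.

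**Figure D3:**
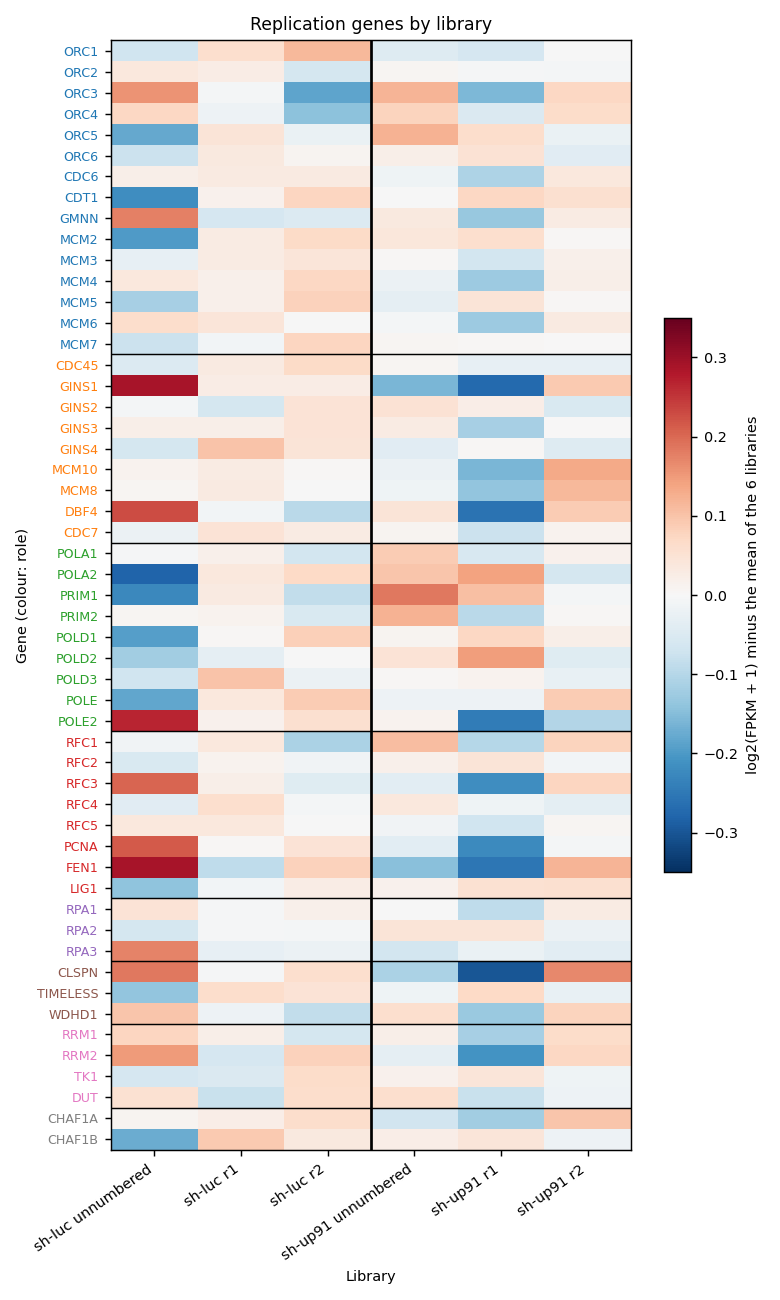
Deviation of log2(FPKM + 1) from the mean of the gene over 6 libraries (colour, red above and blue below), for 53 replication genes (rows, grouped by role) in each library (columns, sh-luc left of the line and sh-up91 right). The strongest colours stand in the unnumbered sh-luc library and in sh-up91 r1, which hold the lowest value of 45 of the 53 genes.

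Licensing genes, which build and load the helicase in G1, lay on both sides of 0. Of the 15, 8 were above 0 and 7 below, with a median of 0.0066 and none with an unadjusted p under 0.05. Without the unnumbered sh-luc library 5 were above 0 and the median was -0.012. Leaving out sh-luc r1 gave 9 above 0 and a median of 0.010. MCM7, a helicase subunit and the most abundant of all 53 transcripts, stood at 292, 305 and 324 FPKM in sh-luc (unnumbered, r1, r2) and at 308, 308 and 307 FPKM in sh-up91. All sh-up91 libraries lay inside the sh-luc range, and the log2 fold change was 0.0066 (SE 0.056, limma adjusted p 0.987). ORC5, a subunit of the origin recognition complex, had the largest change of the group at 0.11 (SE 0.073, limma adjusted p 0.930). Its levels were 48.2, 56.5 and 53.9 FPKM in sh-luc cells and 59.6, 57.1 and 53.9 FPKM in sh-up91, and the unnumbered sh-luc library lay below all others. The change was 0.15 without sh-luc r1 and 0.042 without the unnumbered sh-luc library. The levels of CDT1, the loading factor, and of GMNN, geminin, its inhibitor, went opposite ways in that library. CDT1 stood at 123 FPKM there against 143 to 152 FPKM in the other 5 libraries, and GMNN at 111 FPKM against 89.6 to 101 FPKM. The ratio of CDT1 to GMNN was 1.41 ± 0.27 in sh-luc and 1.53 ± 0.14 in sh-up91 (SD, n = 3), a difference smaller than the spread. Without the unnumbered sh-luc library the ratio in sh-luc was 1.54 and 1.59, within the sh-up91 range of 1.42 to 1.69.

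Among the 9 firing and helicase activation genes, 8 were below 0 and 1 (GINS2) above, with a median of -0.036, and none had an unadjusted p under 0.05. Without sh-up91 r1, 5 of the 9 were below 0 and the median was -0.0069. All 9 were below 0 without sh-luc r1, and also without the unnumbered sh-up91 library. GINS1, a subunit of the GINS complex that holds CDC45 and MCM2-7 together, had the most negative change of all 53 genes at -0.23 (SE 0.11, limma adjusted p 0.930). Its levels were 12.77, 10.47 and 10.47 FPKM in sh-luc cells and 9.08, 8.34 and 11.01 FPKM in sh-up91. One sh-up91 library, r2, stood above both numbered sh-luc libraries, so the groups overlapped. Without the unnumbered sh-luc library the change was -0.14, and without sh-up91 r1 it was -0.15. Leaving out sh-up91 r2 gave -0.33. CDC45 was the most abundant of the group, at 227, 240 and 246 FPKM in sh-luc cells and 236, 230 and 230 FPKM in sh-up91, and the sh-up91 libraries lay inside the sh-luc range (log2 fold change -0.034, SE 0.054, limma adjusted p 0.945). DBF4, the activator of CDC7, ranged from 19.5 to 27.6 FPKM with sh-up91 r1 lowest and the unnumbered sh-luc library highest, while CDC7 itself stayed between 18.9 and 20.6 FPKM. MCM8 is placed here by its family name only, since its best known work, with MCM9, is in recombination. It stood between 10.2 and 12.3 FPKM.

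Of the 9 polymerase and primase genes, 7 were above 0, with a median of 0.036, and they hold both the highest fold change and one of the lowest. Without the unnumbered sh-luc library 5 of the 9 were above 0 and the median was 0.0046, and without the unnumbered sh-up91 library 5 were above 0 as well. Leaving out sh-luc r1 gave 8 above 0, as did leaving out sh-up91 r2. The roles were not tested against each other. PRIM1 stood at 45.0, 54.1 and 49.7 FPKM for sh-luc and at 60.2, 56.9 and 52.6 FPKM in sh-up91, the largest positive change of the 53 at 0.19 (SE 0.080, unadjusted limma p-value 0.0407, adjusted 0.930). The sh-up91 r2 library lay below sh-luc r1, so the groups overlapped. Without the unnumbered sh-luc library the change was 0.12, and without sh-luc r1 it was 0.25. The gene (chr12:56731580-56752323, GRCh38, minus strand) overlaps NACA on the same strand in GENCODE release 44, and how fragments in the overlap were assigned is not given in the sources used here.

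POLE2 stood at 25.72, 21.48 and 22.11 FPKM for sh-luc and at 21.40, 17.75 and 19.69 FPKM in sh-up91. The groups did not overlap, but the gap between them was only that between sh-luc r1 and the unnumbered sh-up91 library. The log2 fold change was -0.23 (SE 0.091, unadjusted limma p-value 0.0333, adjusted 0.930). It was -0.29 without the unnumbered sh-up91 library and -0.15 without the unnumbered sh-luc library. POLE, the catalytic subunit of the same polymerase, had a log2 fold change of 0.036 (SE 0.079, limma adjusted p 0.954). Without the unnumbered sh-luc library that of POLE was -0.045. POLE stood at 1.42, 1.99 and 2.003 times the level of POLE2 in the sh-luc libraries and at 1.92, 2.31 and 2.25 times in the sh-up91 libraries. The 2 groups overlapped, with the unnumbered sh-luc library farthest from the rest. POLD2, a regulatory subunit of polymerase delta and the most abundant gene of the group, stood at 167, 179 and 182 FPKM for sh-luc and at 189, 202 and 177 FPKM in sh-up91 (log2 fold change 0.10, SE 0.065, limma adjusted p 0.930). Its change was 0.055 without sh-up91 r1, 0.067 without the unnumbered sh-luc library and 0.15 without sh-up91 r2. POLA2, which links polymerase alpha to primase, was lowest in the unnumbered sh-luc library at 37.1 FPKM and lay between 43.35 and 49.97 FPKM in the others.

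Clamp, clamp loader and lagging-strand genes had 3 of 8 above 0 and a median of -0.029. PCNA, the sliding clamp that tethers the polymerases, stood at 185.33, 159.98 and 164.84 FPKM for sh-luc and at 155.32, 136.58 and 158.74 FPKM in sh-up91. The lowest sh-luc library and the highest sh-up91 library differed by little, but the groups did not overlap. The log2 fold change was -0.18 (SE 0.077, unadjusted limma p-value 0.0446, adjusted 0.930). It was -0.11 both without the unnumbered sh-luc library and without sh-up91 r1, and -0.22 both without sh-luc r1 and without sh-up91 r2. FEN1, the flap nuclease of the lagging strand, had a similar fold change at -0.19 (SE 0.11, limma adjusted p 0.930), but its groups overlapped. It stood at 95.1, 73.0 and 82.2 FPKM for sh-luc and at 70.0, 64.9 and 84.4 FPKM in sh-up91, with sh-up91 r2 above 2 of the 3 sh-luc libraries. Without the unnumbered sh-luc library its change was -0.091, and without sh-up91 r1 it was -0.11. Leaving out sh-up91 r2 gave -0.30. In GENCODE, FEN1 overlaps FADS2 on the same strand. In RefSeq, 4 annotated pseudogenes carry the name of PCNA and 1 that of FEN1, so fragments of both genes may be shared with other loci. The ratio of PCNA to FEN1 stayed between 1.88 and 2.22 in all 6 libraries. The clamp loader subunits RFC2, RFC4 and RFC5 varied by at most 1.08-fold between their highest and lowest libraries, whereas RFC3 ran from 22.2 FPKM in sh-up91 r1 to 30.2 FPKM in the unnumbered sh-luc library. LIG1, which seals the fragments, had a log2 fold change of 0.084 (SE 0.066, limma adjusted p 0.930). That of LIG1 was 0.034 without the unnumbered sh-luc library and 0.12 without sh-luc r2.

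**Figure D4:**
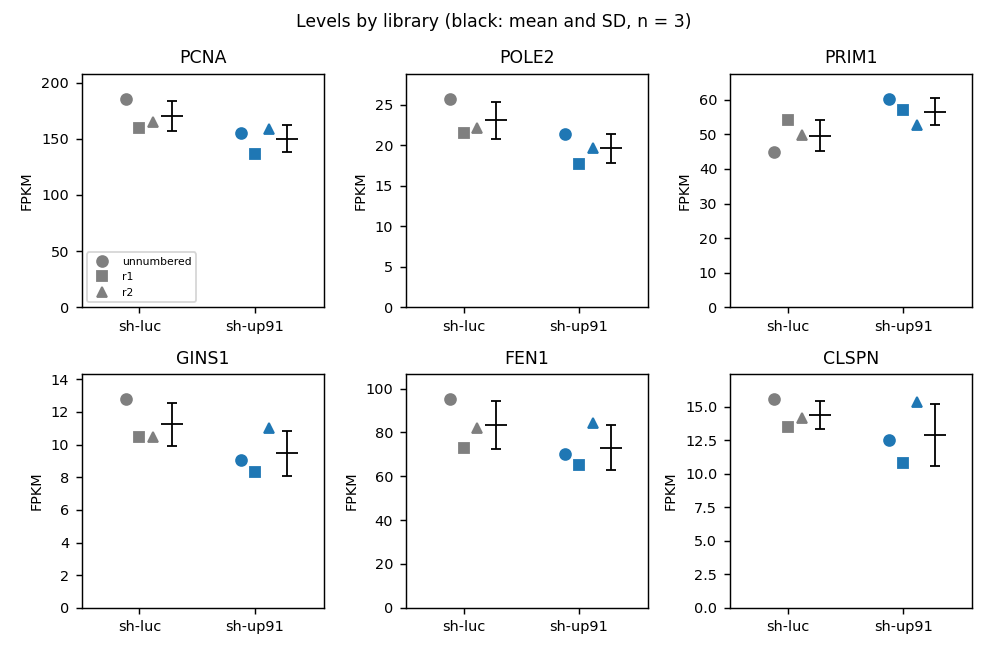
FPKM (y axis, from 0) of PCNA, POLE2, PRIM1, GINS1, FEN1 and CLSPN in each of 3 sh-luc (grey) and 3 sh-up91 (blue) libraries, with circles for the unnumbered library, squares for r1 and triangles for r2, and the mean and SD of each group in black. The groups are apart in PCNA and POLE2 only, and the grey circle is the highest sh-luc library in every panel but PRIM1, where it is the lowest.

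The RPA trimer covers single-stranded DNA at the fork. RPA2, its most abundant transcript, stood at 115 to 124 FPKM over the 6 libraries (log2 fold change 0.048, SE 0.053, limma adjusted p 0.931). RPA3 had the largest change of the 3 at -0.082 (SE 0.073, limma adjusted p 0.930), and its highest value, 25.96 FPKM, was again in the unnumbered sh-luc library, against 21.9 to 22.6 FPKM in the other 5. Without that library its change was -0.017, smaller in size than that of RPA1 (-0.027) and of RPA2 (0.029). Leaving out sh-luc r1 instead gave -0.12 for RPA3.

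Fork mediators keep the helicase and polymerases coupled and pass stress signals to checkpoint kinases. CLSPN, claspin, stood at 15.5, 13.5 and 14.1 FPKM for sh-luc and at 12.5, 10.8 and 15.3 FPKM in sh-up91. One of the sh-up91 libraries, r2, lay among the highest and the others lay below all sh-luc libraries, and the log2 fold change was -0.16 (SE 0.11, limma adjusted p 0.930). Without sh-up91 r1 it was -0.051, and without sh-up91 r2 it was -0.28. TIMELESS, its partner at the fork, stood at 32.8 to 38.0 FPKM, with a log2 fold change of 0.020 (SE 0.072, limma adjusted p 0.968) that turned to -0.044 without the unnumbered sh-luc library. WDHD1, which links the helicase to polymerase alpha, had the lowest level of the 53 genes at a mean of 6.73 FPKM.

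Of the 4 nucleotide supply genes 1 was above 0, and of the 2 chromatin assembly genes 1 was. RRM2, the small subunit of ribonucleotide reductase, which makes deoxynucleotides, stood at 95.1, 82.1 and 90.6 FPKM for sh-luc and at 83.7, 74.0 and 90.1 FPKM in sh-up91 (log2 fold change -0.11, SE 0.083, limma adjusted p 0.930). The groups overlapped, with sh-up91 r1 lowest, and the change was -0.037 without that library and -0.066 without the unnumbered sh-luc library. Leaving out sh-up91 r2 gave -0.18. The large subunit RRM1 had a log2 fold change of -0.022 (SE 0.068, limma adjusted p 0.965), which was 0.031 without sh-up91 r1. TK1, thymidine kinase of the salvage pathway, stood at 95.3 to 104 FPKM in all libraries (log2 fold change 0.028, SE 0.058, limma adjusted p 0.954). DUT, which keeps uracil out of DNA, stood at 58.3 to 64.4 FPKM, and 8 annotated pseudogenes carry its name. CHAF1A, the large subunit of the CAF-1 histone chaperone, had a log2 fold change of -0.062 (SE 0.069, limma adjusted p 0.931), and CHAF1B one of 0.031 (SE 0.076, limma adjusted p 0.958). The change of CHAF1A was -0.016 without sh-up91 r1 and -0.13 without sh-up91 r2, and that of CHAF1B was -0.047 without the unnumbered sh-luc library.

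Levels of subunits differed widely within some complexes and little within others. These levels are in FPKM, which divides by transcript length, as the mean of 6 libraries. Within MCM2-7, MCM7 at 307 FPKM was 2.29 times MCM3 (134 FPKM) and 4.32 times MCM6 (71.2 FPKM). MCM4, MCM5 and MCM2 lay between, at 96.6, 88.5 and 86.7 FPKM, and neighbours among these 3 overlapped over the libraries. The ORC subunits ran from ORC5 (54.9 FPKM) over ORC1 (44.2 FPKM) and ORC6 (32.9 FPKM) to ORC3, ORC4 and ORC2 (20.8, 20.6 and 18.1 FPKM), of which neighbours overlapped.

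The GINS complex, which contains its 4 subunits in equal number, showed one of the widest spreads. GINS2 stood at 170 FPKM, 7.01 times GINS3, 13.2 times GINS4 and 16.4 times GINS1. In polymerase delta, POLD2 (183 FPKM) stood 2.51 times above the catalytic subunit POLD1 (72.9 FPKM) and 18.7 times above POLD3 (9.75 FPKM), and no 2 of these ranges overlapped. POLD4, a further subunit that is not among the 53 genes, stood at 6.68 to 10.31 FPKM and overlapped POLD3. In polymerase alpha-primase, PRIM1 (53.1 FPKM) and POLA2 (45.5 FPKM) overlapped and stood above PRIM2 (14.6 FPKM) and the catalytic subunit POLA1 (12.3 FPKM). RFC2 was the most abundant clamp loader transcript at 93.7 FPKM and RFC1 the least at 18.6 FPKM. In RPA, RPA2 (120 FPKM) stood 3.73 times above RPA1 and 5.24 times above RPA3. Differences were small in CAF-1, where CHAF1A was 1.15 times CHAF1B, and in the CDC7 kinase, where DBF4 was 1.18 times CDC7, and the libraries of both pairs overlapped. RRM2 was 1.38 times RRM1. The ratio of GINS2 to GINS1 was 15.2 ± 1.80 in sh-luc and 18.3 ± 3.07 in sh-up91 (SD, n = 3), and the groups overlapped.

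**Figure D5:**
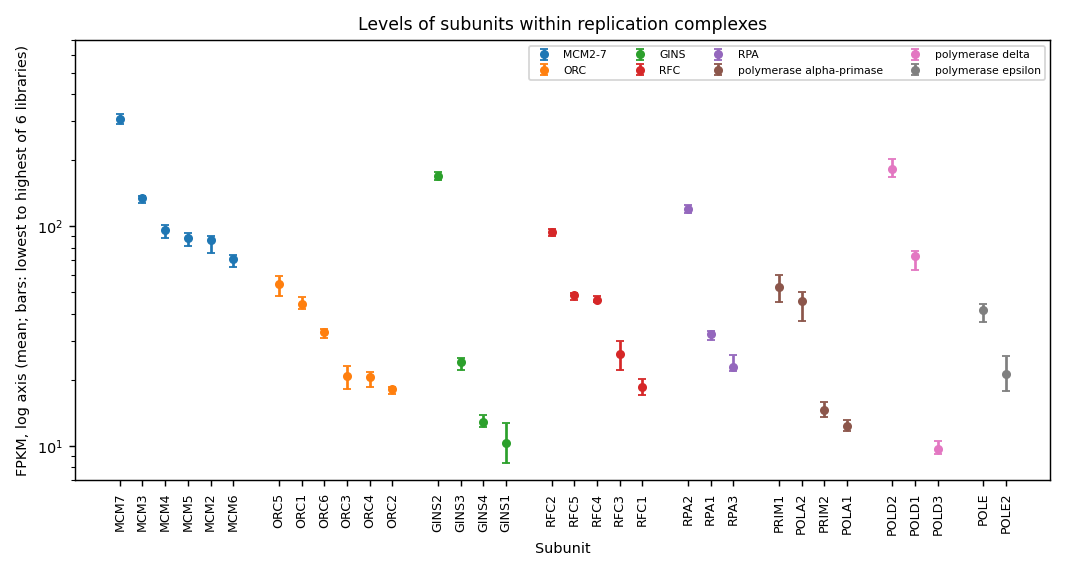
Mean FPKM over 6 libraries (points, log axis) of the subunits of 8 replication complexes (x axis, coloured by complex), with bars from the lowest to the highest library. GINS2 and POLD2 stand 16.4 and 18.7 times above the least abundant subunit of their complex, whereas the bars of single genes are short on this scale.

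Fold changes of genes with and without an E2F word lay on both sides of 0. The 19 genes with a word had a median log2 fold change of -0.025, with 10 below 0, and the 28 matched genes without a word had a median of -0.0051, with 15 below 0. POLE2, PCNA and GINS1 hold a word and POLA2, with a fold change of 0.12, does too. PRIM1 and FEN1 hold none.

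Other genes of the pathway and its regulators gave similar counts. Of 31 further replication genes, among them checkpoint, primer removal and nucleotide genes, 0 were called with limma and 0 had an unadjusted p under 0.05. Of these, 11 were above 0 and 20 below, with a median of -0.023. Those with the smallest p-values were POLE4, a histone-fold subunit of polymerase epsilon, with a log2 fold change of -0.18 (SE 0.10, limma adjusted p 0.930), and CHTF8, a subunit of the alternative clamp loader, with 0.20 (SE 0.12, limma adjusted p 0.930). POLE4 stood at 28.6 FPKM in the unnumbered sh-luc library and at 19.7 to 22.5 FPKM in the others. CHTF8 was lowest in that library, at 54.9 FPKM against 68.2 to 85.1 FPKM.

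Of 13 E2F and retinoblastoma family genes, 0 were called with limma and 0 had an unadjusted p under 0.05. Of these, 6 were above 0 and 7 below, with a median of -0.039, and the groups did not overlap in 2, both lower in sh-up91, against 7.07% of all genes tested in either direction and 3.03% in this one. TFDP1, the DNA-binding partner of E2F factors, was one, at 70.1, 62.9 and 62.9 FPKM in sh-luc cells and 61.8, 55.6 and 61.7 FPKM in sh-up91 (log2 fold change -0.13, SE 0.070, limma adjusted p 0.930). The other was E2F3, named after its values were seen, at 29.6 to 30.2 FPKM in sh-luc cells and 27.9 to 29.2 FPKM in sh-up91 (log2 fold change -0.051, SE 0.059, limma adjusted p 0.931). E2F2, an activating member, had a log2 fold change of 0.16 (SE 0.10, limma adjusted p 0.930). Its level was 12.4 FPKM in the unnumbered sh-luc library and 15.9 to 17.3 FPKM in the others. E2F1, the founding member, stood at 14.4 to 16.9 FPKM in all 6 libraries.

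A list of 20 genes of mitosis, a later step of the cycle, varied more between libraries, with a median SD of 0.17 on the log2 scale against 0.078 for the 53 replication genes. Of these 20, 12 were highest in the unnumbered sh-luc library and 13 lowest in sh-up91 r1, and 11 did both (55%, against 12.8% of all genes tested). Of the 31 further replication genes 3 did both (9.68%), and of the 13 E2F and retinoblastoma family genes 2 did (15.4%). None was called with limma and 1 had an unadjusted p under 0.05. That gene was CCNB1, the cyclin that drives entry into mitosis, at 105, 79.2 and 88.6 FPKM in sh-luc cells and 74.7, 68.7 and 85.0 FPKM in sh-up91 (log2 fold change -0.25, SE 0.11, limma adjusted p 0.930). PLK1, a mitotic kinase, followed with -0.15 (SE 0.068, limma adjusted p 0.930). The median of the 20 was -0.085, with 7 above 0 and 13 below.

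The authors grouped the genes of the table into 9 clusters by the shape of their values over the 6 libraries, and the 53 genes were spread over all 9. Cluster 4 held 9 of them, with GINS1, FEN1, CLSPN and RRM2 among these, or 17.0% against 10.48% of the genes tested. Cluster 5 held another 9, with CDT1, MCM2, MCM5, MCM7 and POLD1 among these, or 17.0% against 11.7%. PCNA, POLE2, RFC3 and GMNN were in cluster 3, and PRIM1 and ORC5 in cluster 1. The clusters were made from the same 6 libraries and are given as a description. Subunits of a complex were often in different clusters, as for POLE (cluster 9) and POLE2 (cluster 3).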

How the data were processed

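RNA-seq libraries of K562 cells were analysed, 3 sh-luc and 3 sh-up91. The authors trimmed adaptors, masked poor sequence, mapped reads to hg38 and used SAMtools 0.1.19 for RPKM. The aligner is not given in the sources used here. The deposited unit is FPKM with 2 decimals. The authors standardized each gene's FPKM and deposited this z score (mean 0 and SD 1 over the libraries). The authors' clustering gave every gene one of 9 clusters, with its membership deposited as a fraction. None of these entered a test. No gene in the table had an SD of FPKM under 0.05 over the libraries. Whole fragments could not be recovered from low values. At the best of many depths tried per library, 37% to 47.6% came out whole to within 0.1. Chance gives 20% at a fixed depth and more at the best of many. Depth is therefore unknown and no count test was run.

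The members and gene lists were chosen with earlier results of these data known. Genes were named by rule: in each of 8 roles the member with the highest FPKM and the one with the largest absolute log2 fold change, and every member without overlap between groups or with an unadjusted p under 0.05, and for other lists the 2 genes with the smallest p. Other members are given by levels and ranges, with those named for their role in a complex or for a value that stands out chosen after their values were seen. Values were transformed to log2(FPKM + 1), a scale that understates changes of low genes. A gene was kept if its mean reached 0.1 FPKM, which left 12276, and limma 3.58.1 (R 4.3.3; lmFit, eBayes with trend) compared the groups, with Benjamini-Hochberg adjustment over all kept genes. On simulated data with 200 changed genes among 12276, the step recovered 152 at a log2 change of 0.5 and 193 at a log2 change of 1. It also called 10 and 4 unchanged genes. The changed genes were drawn from those above 5 FPKM, and the noise was independent between genes. Changes as small as those of the replication genes were not simulated, nor were deviations that many genes of a library share, so recovery of such changes is unknown. The alternatives changed the scaling (median-ratio or quantile), the pseudocount (0.1), the filter (none, or a mean of 1 FPKM) and the prior (eBayes with no trend), added the replicate number as a block, or left out each library in turn. Promoters (GRCh38.p14) and pseudogene names came from RefSeq and gene overlaps from GENCODE release 44. Python 3.11.15, numpy 2.4.6, pandas 2.3.3 and matplotlib 3.10.9 were used.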

Additional observations from a re-analysis of the deposited data

How the results depend on the processing

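Under all 13 alternatives, 0 genes and 0 of the 53 replication genes, and 0 of the 31 further replication genes, were called with limma, and the smallest adjusted p of any of the 53 was 0.667. The number of the 53 with an unadjusted p under 0.05 was 1 with eBayes without a trend (against 2.79% of all genes). With one library left out it was 0 to 5, and the share of all genes moved too. It was 0 without the unnumbered sh-luc library (1.8% of all genes), 0 without sh-up91 r1 (1.89%) and 1 without sh-luc r2 (2.42%). It was 1 without the unnumbered sh-up91 library (1.29%), 4 without sh-luc r1 (6.97%) and 5 without sh-up91 r2 (5.79%). The number without overlap between groups was 4 with quantile normalization (against 6.98% of all genes). It was 4 to 18 with one library left out, where smaller groups overlap less often for all genes too (11.9% to 25.2% of genes). It was 18 without sh-up91 r2 (25.2% of all genes), 9 without sh-luc r2 (14.2%) and 7 without sh-luc r1 (22%). It was 7 without the unnumbered sh-luc library (12.6%), 4 without sh-up91 r1 (14.2%) and 4 without the unnumbered sh-up91 library (11.9%). The median log2 fold change of the 53 lay between -0.030 and 0.0049 with one library left out, the latter without sh-up91 r1, and was -0.028 with median-ratio scaling. Of 16 genes named by rule, 13 kept their sign under every alternative. MCM7 was -0.014 with median-ratio scaling and -0.029 to 0.046 with one library left out. CDC45 was 0.012 with quantile normalization. TIMELESS was -0.00027 with median-ratio scaling and -0.044 to 0.055 with one library left out. The cause was not tested. Deviations of same-numbered libraries from their group means had correlations of 0.044, 0.39 and -0.34 for the unnumbered, r1 and r2 pairs. The labels do not say whether the numbers pair the libraries, and these few correlations cannot settle it. With the replicate block 4 of the 53 and 533 of all genes had an unadjusted p under 0.05, against 3 and 325, and 0 were called. Unknown depth limits what can be said of low genes, and 3 libraries per group limit the size of change that can be called.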
